A study of Mus musculus with 15 samples.

Results

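Fibrin gel was compared with flat culture plates (2D) in induced renal tubular epithelial cells (iRECs), which are mouse fibroblasts turned into tubule-like epithelial cells by transcription factors. Every gene of the authors' deposited table for this comparison whose base mean reached 10 was taken, the base mean being the average of the normalized read counts over the libraries of both groups. This gave 14015 of 27179 genes, or 51.6%, which held nearly all of the summed base means. The fibrin group was 3 libraries of cells cast by hand into fibrin, and the 2D group was 3 libraries of cells dispensed by hand on plates. Both groups were grown for 7 days in renal epithelial growth medium (REGM). The 3 libraries of a group came from passages 35, 48 and 53 of 1 cell line, and at each passage both groups were started from a common pool of cells, so p-values measure the spread between cultures of that line, not between animals. The series holds 15 libraries in all, and its Matrigel, collagen I and bioprinted cultures appear here only where fibrin was set against them. The bioprinted cultures are labelled as grown in fibrin/collagen, so they held fibrin too. Total RNA was sequenced, and the table lists 1 average and 1 fold change for each gene, so single libraries and their depths cannot be seen.

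Fibrin is the fibrous protein of blood clots. Thrombin cuts it from fibrinogen, cells bind it mainly through integrins, and the protease plasmin dissolves it. Kidney tubule cells carry a brush border of transporters and peptidases, and after damage they can take on a state in which they make cytokines, complement and acute phase proteins, the plasma proteins that the liver releases during inflammation. Below, a level is in normalized reads, and the levels in fibrin and in 2D were obtained by splitting the base mean according to the deposited fold change. They are computed values and not measured group means, also where a gene is said to have averaged them. For some genes, given below, a second route to the 2D level gave other values. Fold changes are log2 values of fibrin over 2D, followed by ± and the standard error that the authors gave. The words risen, fallen and changed are used of genes for which the authors' adjusted p, from a Wald test on 3 libraries per group with Benjamini-Hochberg adjustment, lay under 0.05. In bulk RNA, fewer cells of a type and less RNA per cell cannot be told apart.

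The cells kept the markers of their label in fibrin. All 10 epithelial and tubule markers passed the base mean of 10, with a summed level of 125186 in fibrin and 150583 in 2D. Cadherin 16 (Cdh16), a kidney-specific cadherin, averaged 41392 normalized reads in fibrin and 52925 in 2D. Megalin (Lrp2), the endocytic receptor of the proximal tubule, averaged 21034 normalized reads in fibrin and 19176 in 2D. Neither passed the test. Of the transcription factors used to make such cells, Pax8 averaged 14478 normalized reads in fibrin and 22398 in 2D, log2 -0.63 ± 0.19 in the authors' deposited table (adjusted p = 0.015), a call lost under the rescaling described below. Emx2 and Hnf4a had log2 values of 0.08 and -0.39 there and did not pass. Fibroblast markers were low, with a summed level of 163 in fibrin and 333 in 2D over 8 genes, and Col1a2 and Thy1 were at 0 in the table. Among immune markers, Cd3e and Tyrobp were at 0 and the leukocyte antigen Ptprc had a base mean of 3.02, while Csf1r, the receptor of a macrophage growth factor, averaged 334 normalized reads in fibrin and 497 in 2D and did not pass. The summed level of 8 immune markers was 372 in fibrin and 515 in 2D. All 3 podocyte markers, with Nphs1 at 0, lay below the base mean of 10.

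In fibrin 1214 of the 14015 genes changed, which is 8.66%. More rose than fell: 759 genes (5.42%) were higher in fibrin and 455 (3.25%) were lower. The median log2 fold change was 1.004 for the risen and -0.99 for the fallen, against 0.01 over all 14015 genes. A log2 change of 1 or more was reached by 386 risen and 223 fallen genes. A log2 change of 2 or more was reached by 60 risen and 18 fallen genes, and one of 3 or more by 12 risen and 2 fallen genes. Among the genes taken, standard errors fell with the level. Their median was 0.40 for base means of 10 to 30 and 0.21 for base means from 3000 to 10000. Below the base mean of 10 some were smaller again, as for Laptm5 with 0.15 at a base mean of 0.36. The ± values are therefore not plain sampling errors of a ratio. The central part of the Wald statistics, between their quartiles, was 1.38 times as wide as a standard normal distribution. The test assumes that distribution only for unchanged genes. Small changes in many genes would also widen it, and their part was not tested. Dividing the statistics by that spread left 316 changed genes, 2.25%, with 217 risen and 99 fallen. Genes that lost their call under this rescaling are named as such in the paragraphs below.

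**Figure D1:**
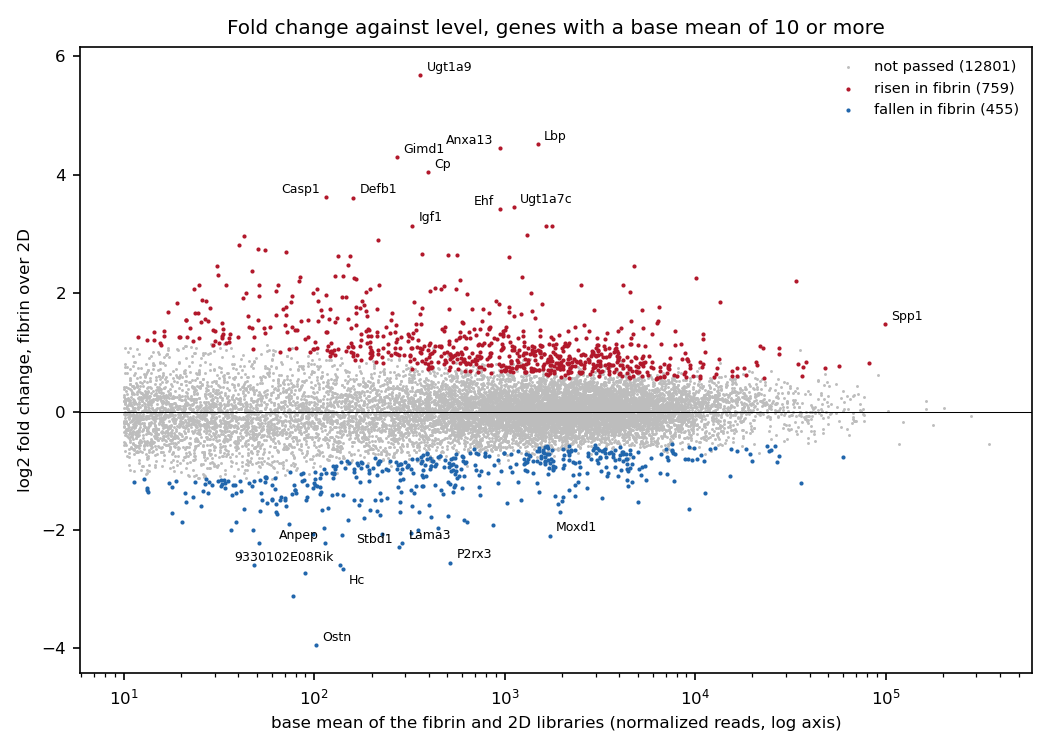
Base mean of each gene (normalized reads, log axis) against its log2 fold change, fibrin over 2D, for the 14015 genes; red points rose (759), blue points fell (455) and grey points did not pass. The red cloud reaches farther from 0 than the blue one, with Ugt1a9 at 5.68 and Ostn at -3.94 as its ends among genes at a base mean of at least 100.

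The 20 highest fold changes in fibrin were taken among changed genes at a base mean of at least 100. The glucuronosyltransferase Ugt1a9, which couples drugs and other small molecules to glucuronic acid, averaged 709 normalized reads in fibrin and 13.9 in 2D, a log2 fold change of 5.68 ± 0.32 in the authors' deposited table (adjusted p = 2e-66). Lbp, the serum protein that hands bacterial lipopolysaccharide to Cd14, averaged 2859.8 normalized reads in fibrin and 125 in 2D, log2 4.52 ± 0.28 there (adjusted p = 7.7e-56). It lies on chromosome 2, 158306000 to 158333000 of GRCm38.p6. The epithelial annexin Anxa13, a membrane-binding protein, averaged 1801 normalized reads in fibrin and 82.6 in 2D, with log2 4.45 ± 0.26 in the authors' deposited table (adjusted p = 4.5e-60). The 2D levels of the 3 genes lay below 1449, the median base mean of the protein-coding genes taken. In fibrin Lbp and Anxa13 lay above that median and Ugt1a9 below it.

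Ceruloplasmin (Cp), the copper-carrying ferroxidase of plasma, averaged 744 normalized reads in fibrin and 45 in 2D (log2 4.05 ± 0.31 in the authors' deposited table). Caspase 1 (Casp1), the protease of the inflammasome that matures interleukin 1, averaged 214 normalized reads in fibrin and 17.3 in 2D (log2 3.63 ± 0.34 there). The antimicrobial peptide gene Defb1 averaged 296 normalized reads in fibrin and 24.1 in 2D, log2 3.62 ± 0.35 in the authors' deposited table. Insulin-like growth factor 1 (Igf1) averaged 587 normalized reads in fibrin and 66.5 in 2D, log2 3.14 ± 0.30 in that table of the authors. Ehf, an epithelial ETS transcription factor, averaged 1728 normalized reads in fibrin and 161 in 2D and had log2 3.43 ± 0.34 in the authors' deposited table. Tmem27 (collectrin), which carries amino acid transporters to the brush border, reached 3169 normalized reads in fibrin against 362 in 2D, log2 3.13 ± 0.23 in the deposited table. Slc39a4, the zinc importer of the gut epithelium, averaged 381 normalized reads in fibrin and 51.2 in 2D. Its deposited log2 value was 2.89 ± 0.36. Adhesion genes in the top 20 were the protocadherin Pcdh10 (log2 3.13 ± 0.27), Alcam (2.61 ± 0.23), the adhesion receptor Adgrb2 (2.65 ± 0.34) and Vwa2, a matrix protein found at basement membranes (2.67 ± 0.29), in the authors' deposited table. The other members of the top 20 were Gimd1, Ugt1a7c, Plekhs1, the cornified envelope gene sciellin (Scel) and the protease inhibitor genes Serpina3g and Serpina3h, at log2 2.62 to 4.29. All 20 also passed with the rescaled Wald statistics.

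**Figure D2:**
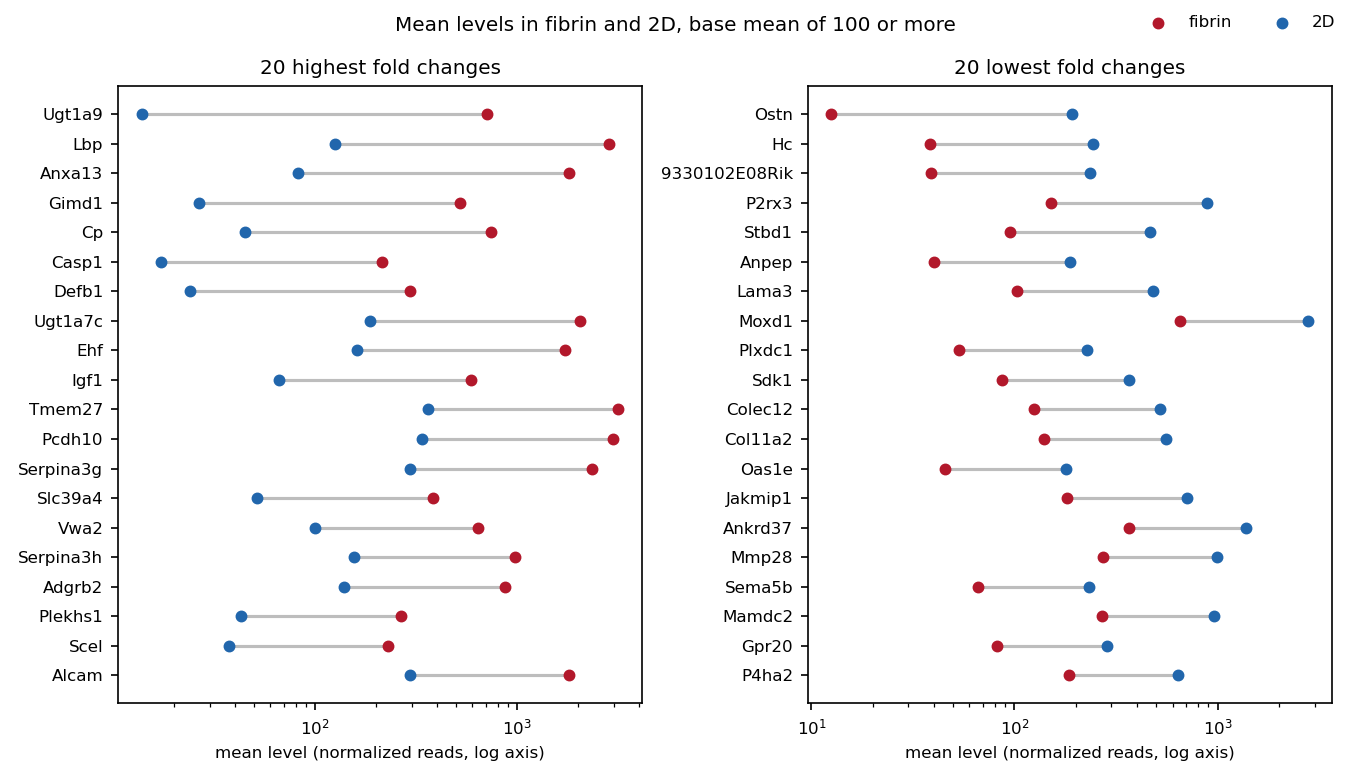
Mean level in fibrin (red) and in 2D (blue) of the 20 genes with the highest (left) and the 20 with the lowest (right) fold change among changed genes at a base mean of at least 100, in normalized reads on a log axis. The 2D levels of the 20 highest genes run down to 13.9 for Ugt1a9, and the fibrin level of Ostn is 12.6.

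Some of these names stand for genes that the read counting may not keep apart. Serpina3g, Serpina3h, Serpina3f and Serpina3i are close copies that lie side by side on chromosome 12, and their fold changes in the authors' deposited table were 2.99 ± 0.33, 2.65 ± 0.30, 2.48 ± 0.36 and 2.29 ± 0.31 on the log2 scale. The Ugt1a genes share their last exons, so reads from one can count for another. Values of both groups are uncertain for that reason. The pair Serpina3f and Serpina3i was added after its values were seen.

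The 20 lowest fold changes in fibrin were taken in the same way. Osteocrin (Ostn), a secreted peptide of bone and muscle, averaged 12.6 normalized reads in fibrin and 193 in 2D, log2 -3.94 ± 0.38 in the authors' deposited table (adjusted p = 2.3e-22). Complement C5 (Hc) averaged 38.5 normalized reads in fibrin and 244 in 2D, with log2 -2.66 ± 0.32 there. P2rx3, a cation channel opened by extracellular ATP, averaged 151 normalized reads in fibrin and 884 in 2D (log2 -2.55 ± 0.25 in the deposited table, adjusted p = 6.5e-21). Stbd1, which tethers glycogen to membranes, averaged 95.1 normalized reads in fibrin and 465 in 2D, log2 -2.29 ± 0.35 in the authors' deposited table. The brush border aminopeptidase Anpep averaged 40.1 normalized reads in fibrin and 187 in 2D and had a deposited log2 value of -2.23 ± 0.35. Laminin alpha 3 (Lama3), a chain of the epithelial anchoring laminin, averaged 103 normalized reads in fibrin and 478 in 2D, log2 -2.22 ± 0.26 in the authors' deposited table. Moxd1, a copper-dependent monooxygenase and the most abundant of the 20, averaged 654 normalized reads in fibrin and 2791 in 2D. The other 13 ran from log2 -2.59 for the noncoding 9330102E08Rik to -1.78 for P4ha2, which hydroxylates prolines of collagen. They include the scavenger collectin Colec12, the metalloprotease Mmp28, collagen Col11a2 and the semaphorin Sema5b. All 20 passed with the rescaled Wald statistics.

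Acute phase genes rose in fibrin where they changed, and most of the changed complement genes rose too. The share changed was 35.7% for acute phase and 36.8% for complement genes, against 8.66% over all genes. Of 14 acute phase members 5 rose and none fell, with a median log2 fold change of 0.85. Besides Lbp, they were Serping1, the inhibitor of the first complement protease, at 748 normalized reads in fibrin and 179 in 2D (log2 2.06 ± 0.35 in the authors' deposited table, adjusted p = 6.3e-07), and the lipopolysaccharide co-receptor Cd14 at 9441 normalized reads in fibrin and 3254 in 2D (log2 1.54 ± 0.22, adjusted p = 1.2e-09). The fibrinogen beta chain Fgb, at 42.5 in fibrin and 16.3 in 2D, and the protease trap A2m, at 131 in fibrin and 54.7 in 2D, had deposited log2 values of 1.39 ± 0.40 and 1.26 ± 0.33. The other fibrinogen chains did not pass, with Fga at 0.93 ± 0.34 and Fgg at 0.30 ± 0.35 in that table. Of 19 complement genes 5 rose and 2 fell, all of them also after the rescaling. C3, the central complement component, averaged 55859.6 normalized reads in fibrin and 12154 in 2D, log2 2.20 ± 0.32 in the authors' deposited table (adjusted p = 1.2e-09). Factor B (Cfb), which with C3 forms the alternative pathway convertase, averaged 6783 normalized reads in fibrin and 1536 in 2D, log2 2.14 ± 0.30 there. The first-component proteases C1s1 and C1ra were at 1.82 ± 0.26 and 1.39 ± 0.21 on the log2 scale in the authors' deposited table. The 2 that fell were Hc and Colec12, described above. After rescaling, Fgb and A2m did not pass.

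Iron and copper genes went in both directions, with 4 of 27 risen and 2 fallen and a median of 0.09. Changed members made up 22.2% of this list, against 8.66% over all genes. Lactoferrin (Ltf), an iron-binding defence protein, averaged 269 normalized reads in fibrin and 56.1 in 2D, log2 2.26 ± 0.31 in the authors' deposited table (adjusted p = 5.9e-11). The transferrin receptor Tfrc, which takes up iron, averaged 6843 normalized reads in fibrin and 2374 in 2D, log2 1.53 ± 0.26 there. Lipocalin 2 (Lcn2), which binds iron-carrying bacterial siderophores and marks tubular injury, was at 37452 normalized reads in fibrin and 17808 in 2D, log2 1.07 ± 0.37 in the deposited table (adjusted p = 0.046). Its 2D level was 1801 by the other tables, as described below. The reductase Steap3 and the copper pump Atp7b fell, to log2 -0.91 ± 0.29 and -0.69 ± 0.23 in the authors' deposited table. Lcn2, Steap3 and Atp7b lost their calls with rescaled statistics.

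Cytokine genes rose where they changed. Changed were 24.2% of the chemokines and cytokines and 21.9% of the NF-kB list, against 8.66% over all genes. Among 33 chemokines and cytokines 8 rose and none fell, with a median of 0.40, and 4 of the 8 passed after the rescaling. The alarmin Il33 averaged 4122 normalized reads in fibrin and 934 in 2D, log2 2.14 ± 0.30 in the authors' deposited table (adjusted p = 4.4e-10). The chemokine fractalkine (Cx3cl1) averaged 4930.4 normalized reads in fibrin and 1962 in 2D, log2 1.33 ± 0.28 there (adjusted p = 0.00011). Ccl17, which attracts T cells, was at 302 in fibrin and 74.3 in 2D, and the death ligand Tnfsf10 (TRAIL) was at 52.1 in fibrin and 10.5 in 2D. Interleukin 1 beta (Il1b) averaged 39.9 in fibrin and 13.6 in 2D, a log2 value of 1.56 ± 0.40 in the authors' deposited table. Of 32 genes for NF-kB subunits, inhibitors and targets 7 rose and none fell, median 0.34, and 1 passed after the rescaling. That was Zc3h12a, an RNase that degrades cytokine transcripts, at 2127 normalized reads in fibrin and 653 in 2D (log2 1.70 ± 0.35 in the deposited table, adjusted p = 6.5e-05). The inhibitors Nfkbia and Nfkbiz, feedback genes of the pathway, were at log2 1.22 ± 0.32 and 0.91 ± 0.28 in the authors' deposited table. The adhesion molecule Vcam1 was at 1.12 ± 0.39 and the surface protein Cd83 at 1.40 ± 0.40 there. Calls lost with rescaled statistics were those of Il1b, Nfkbia, Nfkbiz, Vcam1 and Cd83.

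Other immune lists and the injury markers had shares on both sides of the 8.66% over all genes. Of 30 interferon response genes 2 rose, Ifit2 and Ifit3b, and the list's median was -0.11. Of 27 antigen presentation genes 2 rose, and of these the invariant chain Cd74, a partner of class II molecules, averaged 1409 normalized reads in fibrin and 384 in 2D, log2 1.88 ± 0.22 in the authors' deposited table (adjusted p = 9.2e-15). Psmb10, a subunit of the immunoproteasome, was at 0.75 ± 0.21 there. Of 26 STAT3 pathway genes 1 rose, the feedback gene Socs2 (1.004 ± 0.22), and 1 fell, the kinase Pim3 (-0.84 ± 0.22), in the deposited table. Tubular injury and progenitor markers had 7 of 27 members risen and none fallen, with a median of 0.30. Osteopontin (Spp1), among the 10 genes with the highest base means, averaged 145956 normalized reads in fibrin and 52529 in 2D, log2 1.47 ± 0.29 in the authors' deposited table (adjusted p = 1.9e-05). Igfbp7, a secreted IGF-binding protein, averaged 21039 normalized reads in fibrin and 5839.6 in 2D, log2 1.85 ± 0.23 there. Havcr1 (KIM-1), the best known injury marker, did not pass at -0.21 ± 0.24 in the deposited table. In the list of immune cell markers 3 of 6 members rose: Cd14, the T cell costimulator Icos (log2 2.07 ± 0.31 in the authors' deposited table) and the integrin Itgam (1.24 ± 0.40, 35 in fibrin and 14.8 in 2D). The leukocyte genes Ptprc, Tyrobp and Cd3e were at or near 0, and Csf1r was not, as given above, and the part of such cells in the result was not tested. With the rescaled statistics Psmb10, Pim3 and Itgam, and Ifit2 and Ifit3b, did not pass.

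**Figure D3:**
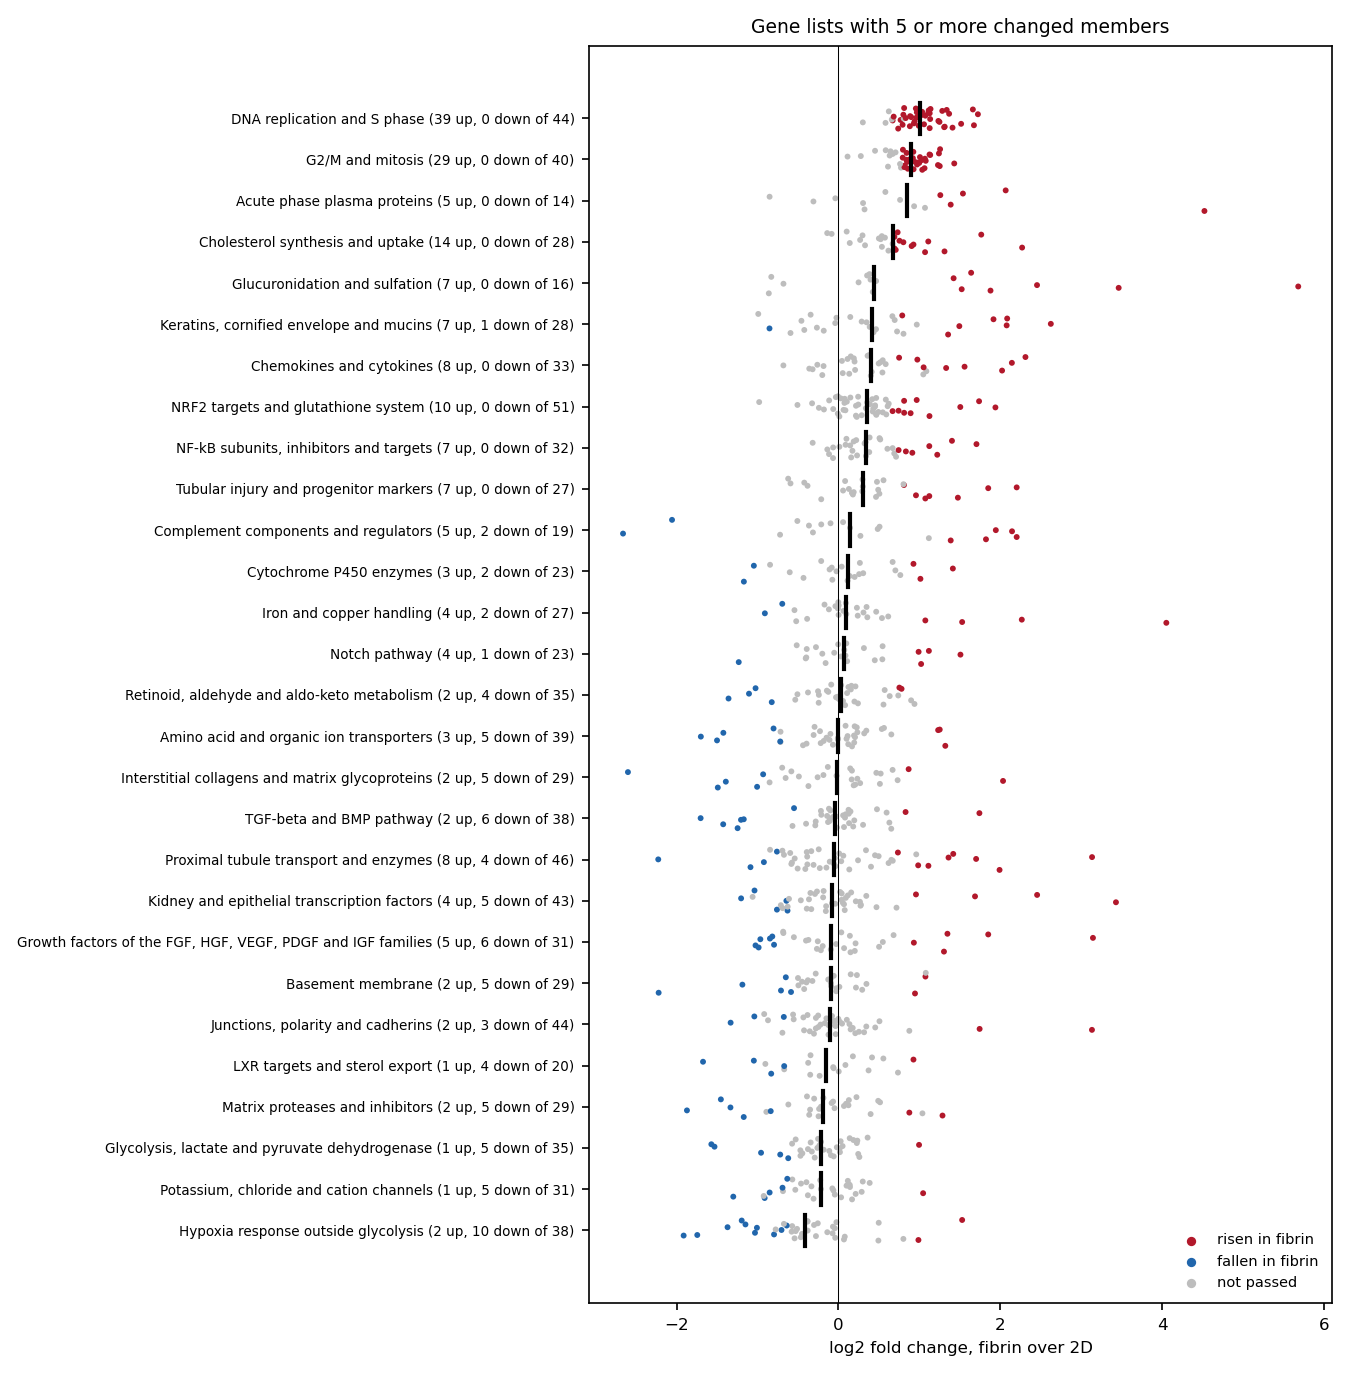
Log2 fold change, fibrin over 2D, of every member of the 28 gene lists with 5 or more changed members; each point is a gene (red risen, blue fallen, grey not passed) and the black bar is the list's median. DNA replication has the highest median, 1.01, and 15 medians lie above 0 and 13 below.

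A second set of genes stood out through its levels and not through the deposited fold changes. The level in 2D can also be taken from the authors' other 3 tables, which share the 2D libraries, and the fibrin level is then what remains of the base mean. By this route 28 of 11371 genes at a base mean of at least 100 had a log2 ratio above 1 that exceeded the deposited value by more than 1, and 16 of the 28 had not passed the authors' test. The opposite, a ratio below -1 that undercut the deposited value by more than 1, was found for 2 genes. Steap4, a metalloreductase of iron and copper, had a base mean of 1495, a 2D level of 14 from the other tables and 2975 left for fibrin, a log2 ratio of 7.73 against 0.31 ± 0.24 in the authors' deposited table. For the interleukin 36 gene Il1f6 the same levels were 8437 in fibrin and 98.9 in 2D, log2 6.41 against a deposited 0.48 ± 0.28. Lcn2 came to 53458 in fibrin and 1801 in 2D, and the neutrophil chemokine Cxcl5 to 67499.5 in fibrin and 3675 in 2D. Their log2 ratios were 4.89 and 4.20, while the authors' deposited table gave 1.07 ± 0.37 and 1.05 ± 0.37.

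The other members of the 10 widest gaps were Slpi, an antiprotease of epithelial secretions, the monocyte chemokine Ccl2, lymphotoxin beta (Ltb), the activation antigen Cd69, the inducible nitric oxide synthase Nos2 and serum amyloid A3 (Saa3). Their log2 ratios by levels ran from 2.64 for Nos2 to 4.43 for Slpi, against 0.10 ± 0.19 and 0.57 ± 0.31 in the authors' deposited table. Of the 10 only Lcn2 passed the deposited test (adjusted p = 0.046), and not with rescaled statistics, while Cxcl5 missed it (adjusted p = 0.056). The same substitution moved the median of the acute phase list to 1.59 and that of the cytokine list to 0.84, against 0.01 over all members. Which of the 3 fibrin libraries held the reads is not known from the tables. The spread between those libraries was not tested for that reason.

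**Figure D4:**
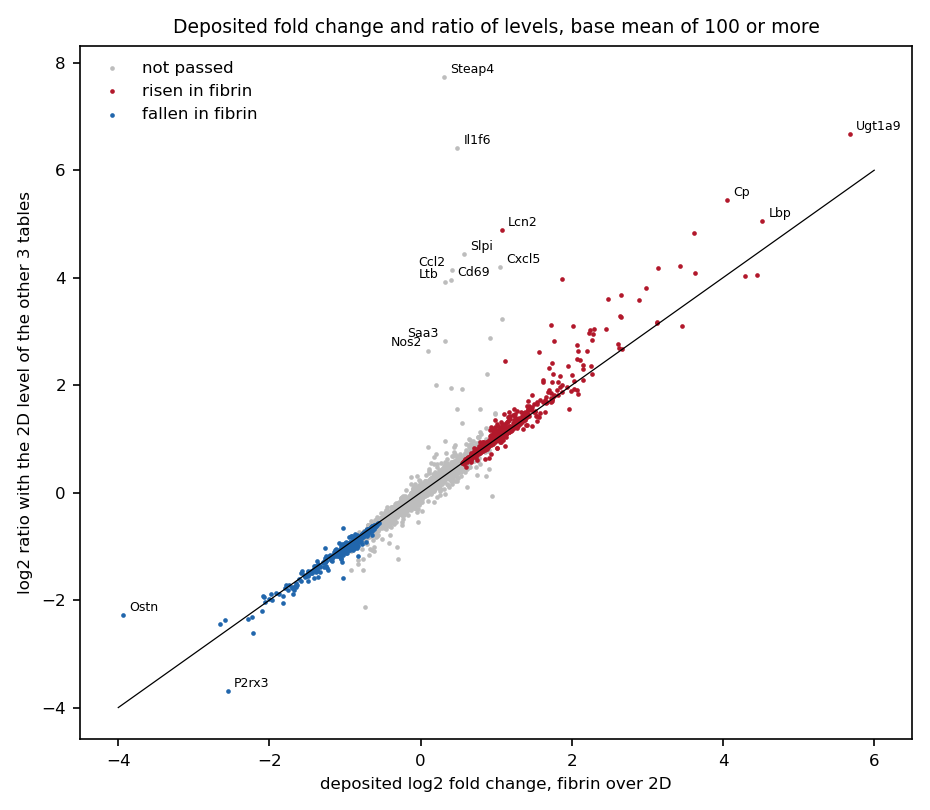
Deposited log2 fold change, fibrin over 2D, against the log2 ratio of levels with the 2D level taken from the other 3 tables, for genes at a base mean of at least 100; the line marks equal values. Most genes lie along the line, while Steap4 (7.73 by levels, 0.31 deposited), Il1f6 and Slpi stand far above it.

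Promoters of 3 risen genes are shown because NF-kB, STAT and C/EBP factors, which drive inflammatory and acute phase genes, have known motifs. The sequences are RefSeq promoters of GRCm38.p6, 250 bases before to 50 bases after the gene start, 5′ to 3′ on the gene's strand, and were available for 10767 of the 14015 genes. Capitals mark GGNNTTTCC, an NF-kB-like motif, in Nfkbia. In Serpina3g they mark that motif and TTCNNNGAA, a STAT-like motif. In C3 they mark TTGCNNAA, a C/EBP-like motif. Both strands were searched. Values of the genes were known when they were picked.
Nfkbia (chr12:55492598-55492897, minus strand): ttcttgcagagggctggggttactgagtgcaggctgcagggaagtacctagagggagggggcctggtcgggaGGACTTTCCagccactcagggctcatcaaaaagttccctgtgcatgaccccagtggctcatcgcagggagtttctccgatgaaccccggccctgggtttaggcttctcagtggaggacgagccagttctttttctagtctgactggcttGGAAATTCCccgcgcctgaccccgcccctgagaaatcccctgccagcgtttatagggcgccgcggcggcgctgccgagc
Serpina3g (chr12:104235897-104236196, plus strand): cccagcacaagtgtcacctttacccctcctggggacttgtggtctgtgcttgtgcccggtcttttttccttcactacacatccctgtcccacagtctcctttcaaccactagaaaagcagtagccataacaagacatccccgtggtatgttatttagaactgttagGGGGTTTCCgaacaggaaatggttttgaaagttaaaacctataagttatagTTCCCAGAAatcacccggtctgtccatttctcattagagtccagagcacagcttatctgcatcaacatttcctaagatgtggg
C3 (chr17:57228087-57228386, minus strand): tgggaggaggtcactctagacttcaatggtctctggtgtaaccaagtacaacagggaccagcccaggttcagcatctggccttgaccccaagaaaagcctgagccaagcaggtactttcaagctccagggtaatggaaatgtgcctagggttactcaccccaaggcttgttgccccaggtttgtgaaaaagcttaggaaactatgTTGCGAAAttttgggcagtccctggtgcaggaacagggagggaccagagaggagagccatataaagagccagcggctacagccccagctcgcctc
The Nfkbia promoter held 2 matches, that of Serpina3g 1 of each motif and that of C3 1 match. Over the promoters of all members the NF-kB-like motif was found in 6.01%, the STAT-like motif in 6.98% and the C/EBP-like motif in 7.98%. Among the 589 promoters of risen genes the shares were 7.30%, 8.49% and 8.49%. Among the 334 of fallen genes they were 4.79%, 7.78% and 5.39%. These matches describe letters and not binding. As given above, the call of Nfkbia was lost on rescaling.

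Cell cycle genes rose in fibrin where they changed. Of the 44 replication and S phase genes 39 rose and none fell, 88.6% against 8.66% over all genes, and every member lay above 0, with a median of 1.01. Ribonucleotide reductase M2 (Rrm2), which makes deoxynucleotides, averaged 8120.3 normalized reads in fibrin and 2462 in 2D, log2 1.72 ± 0.24 in the authors' deposited table (adjusted p = 4.1e-10). The origin licensing factor Cdc6 averaged 1256 normalized reads in fibrin and 394 in 2D, log2 1.67 ± 0.29 there. Cyclin E2 (Ccne2), which drives entry into S phase, was at 252 in fibrin and 79.9 in 2D, log2 1.66 ± 0.33 in the deposited table. The helicase subunits Gins1 and Mcm4 were at 1.51 ± 0.27 and 1.41 ± 0.21 in the authors' deposited table. Among the 40 mitotic genes 29 rose and none fell, median 0.90. The checkpoint gene Mad2l1 averaged 3426 normalized reads in fibrin and 1272 in 2D, log2 1.43 ± 0.22 in the authors' deposited table (adjusted p = 2.6e-08), and securin (Pttg1), the kinases Plk1 and Aurkb and the ubiquitin enzyme Ube2c lay between 1.23 and 1.25. With the rescaled statistics 14 of the 39 replication and 6 of the 29 mitotic genes passed.

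Brakes on the cycle and stress genes went in both directions. Changed were 11.5% of the CDK inhibitor, D cyclin and quiescence list and 14.8% of the p53 list, against 8.66% over all genes. Of 26 CDK inhibitors, D cyclins and quiescence genes 1 rose, the retinoblastoma relative Rbl1 (log2 0.73 ± 0.24), and 2 fell, cyclin D2 (Ccnd2, -0.72 ± 0.22) and Foxo3 (-0.65 ± 0.22), in the authors' deposited table. Of 27 p53 genes 1 rose, Trp53 itself (0.57 ± 0.20, 12642 in fibrin and 8510 in 2D), and 3 fell, the death gene Bbc3 (Puma, -0.87 ± 0.22), Zmat3 and Eda2r, in that table of the authors. Chaperones and stress genes were near the background: of 32 heat shock chaperones 2 rose, Ahsa1 and Stip1, and of 42 amino acid and unfolded protein stress genes 1 rose, Herpud1, and 2 fell. Of these, the stress factor Ddit3 (CHOP) averaged 1095 normalized reads in fibrin and 2964 in 2D, log2 -1.44 ± 0.23 in the deposited table (adjusted p = 7.6e-08), and Aldh1l2, a mitochondrial folate enzyme, was at -0.82 ± 0.25. In this paragraph only Ddit3 passed with the rescaled statistics, so the calls of Rbl1, Ccnd2, Foxo3, Trp53, Bbc3 and Aldh1l2, and of Zmat3, Eda2r, Ahsa1, Stip1 and Herpud1, were lost.

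Sterol synthesis genes rose in fibrin where they changed. Against 8.66% over all genes, 50% of the cholesterol list and 25% of the LXR and sterol export list changed. The shares were 11.8% for fatty acid synthesis and 2.86% for fatty acid oxidation and peroxisomes. Of 28 genes of cholesterol synthesis and uptake 14 rose and none fell, with a median of 0.68, and 5 of the 14 passed after the rescaling. Idi1, the isomerase of the isoprenoid steps, averaged 2053 normalized reads in fibrin and 426 in 2D, log2 2.27 ± 0.24 in the authors' deposited table (adjusted p = 1.5e-18). Insig1, which retains the sterol sensor in the endoplasmic reticulum, averaged 10017 normalized reads in fibrin and 2951 in 2D, log2 1.76 ± 0.21 there. Hmgcs1, the HMG-CoA synthase, averaged 15628 normalized reads in fibrin and 6306 in 2D and had log2 1.31 ± 0.20 in the deposited table, with Nsdhl and Acat2 at 1.11 ± 0.24 and 1.07 ± 0.23. Of 20 LXR targets and sterol export genes 4 fell and 1 rose, with the exporters Abca1 (-0.83 ± 0.22) and Npc1 (-0.67 ± 0.20), the esterifying enzyme Soat2 (-1.67 ± 0.39) and Cyp27a1 (-1.05 ± 0.25) as the fallen ones in that table, and Cyp39a1 (0.93 ± 0.27) as the risen one. Of 34 genes of fatty acid synthesis 4 rose and none fell: the factor Mlxipl, the elongase Elovl6 and the acyl-CoA synthetases Acsl5 and Acsl3, at log2 0.68 to 0.88. Of 35 genes of fatty acid oxidation and peroxisomes only the thioesterase Acot2 changed, to -1.36 ± 0.25 in the authors' deposited table. After rescaling Abca1, Npc1, Soat2, Cyp27a1 and Cyp39a1 and the 4 fatty acid synthesis genes did not pass.

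More hypoxia genes fell than rose in fibrin. Changed were 31.6% of the hypoxia list and 17.1% of the glycolysis list, against 8.66% over all genes. Of 38 genes of the hypoxia response outside glycolysis 10 fell and 2 rose, and the median was -0.42. Ankrd37, a small ankyrin protein induced by low oxygen, averaged 367 normalized reads in fibrin and 1379.7 in 2D, log2 -1.91 ± 0.22 in the authors' deposited table (adjusted p = 5.8e-16). The vasodilator peptide adrenomedullin (Adm) averaged 102 normalized reads in fibrin and 341 in 2D, log2 -1.74 ± 0.27 there (adjusted p = 1.1e-08). The adenylate kinase Ak4 averaged 187 normalized reads in fibrin and 485 in 2D, log2 -1.37 ± 0.27 in the deposited table. Rora, a nuclear receptor, and Selenbp2 were at -1.20 ± 0.30 and -1.15 ± 0.38 in the authors' deposited table. The 2 that rose were Tfrc, given above, and the hypoxia factor subunit Epas1 (0.99 ± 0.30, 165 in fibrin and 83.1 in 2D). Hif1a did not pass at 0.49 ± 0.24. Of 35 genes of glycolysis, lactate and pyruvate dehydrogenase 5 fell and 1 rose, median -0.22. Pdk1, the kinase that keeps pyruvate out of mitochondria, averaged 957 normalized reads in fibrin and 2840 in 2D, log2 -1.57 ± 0.22 in the authors' deposited table (adjusted p = 1.9e-10). Neuronal enolase (Eno2) averaged 2589 normalized reads in fibrin and 7481 in 2D, log2 -1.53 ± 0.25 there, and the regulator Pfkfb3 was at -0.96 ± 0.20, the phosphofructokinase Pfkp at -0.72 ± 0.19 and the glucose transporter Slc2a1 at -0.62 ± 0.19. Lactate dehydrogenase B (Ldhb) rose, at 0.99 ± 0.26 in the authors' deposited table. Calls of Rora, Selenbp2, Epas1, Pfkp, Slc2a1 and Ldhb were lost on rescaling.

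Promoters of 3 of the fallen genes are shown for the core of the hypoxia response element, in the same RefSeq windows of GRCm38.p6. Capitals mark ACGTG or GCGTG on either strand, and neighbouring matches can overlap. The 3 were picked with their values known, and Bnip3, a mitophagy receptor, was at log2 -1.03 ± 0.25 in the authors' deposited table.
Ankrd37 (chr8:45999801-46000100, minus strand): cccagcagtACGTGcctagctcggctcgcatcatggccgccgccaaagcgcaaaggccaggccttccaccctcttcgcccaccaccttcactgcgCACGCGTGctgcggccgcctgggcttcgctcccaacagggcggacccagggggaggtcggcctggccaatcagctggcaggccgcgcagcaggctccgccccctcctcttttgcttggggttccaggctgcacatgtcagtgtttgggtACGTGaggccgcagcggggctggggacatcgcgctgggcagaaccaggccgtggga
Bnip3 (chr7:138909457-138909756, minus strand): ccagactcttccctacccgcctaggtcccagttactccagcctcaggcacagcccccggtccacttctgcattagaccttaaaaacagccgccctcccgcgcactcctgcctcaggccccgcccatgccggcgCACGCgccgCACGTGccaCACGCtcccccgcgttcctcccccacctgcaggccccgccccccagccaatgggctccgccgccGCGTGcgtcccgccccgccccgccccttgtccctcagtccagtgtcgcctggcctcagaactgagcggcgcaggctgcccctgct
Pdk1 (chr2:71872974-71873273, plus strand): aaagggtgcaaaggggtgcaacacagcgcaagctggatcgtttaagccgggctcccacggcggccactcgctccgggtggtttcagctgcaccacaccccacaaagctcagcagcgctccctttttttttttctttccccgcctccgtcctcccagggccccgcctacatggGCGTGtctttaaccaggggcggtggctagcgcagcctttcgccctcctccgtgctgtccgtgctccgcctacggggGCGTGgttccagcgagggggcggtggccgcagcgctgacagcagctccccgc
The promoter of Ankrd37 held 4 matches, that of Bnip3 5 and that of Pdk1 2. A core this short is common: 62.5% of the promoters of all members held at least 1, as did 55.0% of those of risen and 58.4% of those of fallen genes. Among the hypoxia list it was found in 81.2% of 32 promoters. The call of Bnip3 was lost on rescaling.

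Respiration and glycogen genes were read against the 8.66% over all genes. Of 37 nuclear genes of the respiratory chain and ATP synthase 1 rose, Cox7b (log2 0.84 ± 0.23 in the authors' deposited table), and none fell. Of 23 genes of glycogen and gluconeogenesis 1 rose, the branching enzyme Gbe1 (0.66 ± 0.23 in that table of the authors), and 1 fell, Stbd1, with a median of -0.34. The calls of Cox7b and Gbe1 were lost on rescaling.

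Conjugating and glutathione enzymes rose where they changed. Against 8.66% over all genes, 43.75% of the glucuronidation and sulfation list and 19.6% of the NRF2 and glutathione list changed. The shares were 21.7% for P450 genes, 17.1% for retinoid, aldehyde and aldo-keto genes and 26.7% for NADPH oxidase and antioxidant genes. Of 16 glucuronidation and sulfation genes 7 rose and none fell, 6 of them also after the rescaling. Next to Ugt1a9 and Ugt1a7c (log2 3.46 ± 0.23 in the authors' deposited table), Ugt1a10 averaged 52.4 in fibrin and 9.59 in 2D and Ugt1a6a 40.5 in fibrin and 11 in 2D, and Papss2, which makes the sulfate donor, averaged 94.9 normalized reads in fibrin and 30.5 in 2D. Their deposited log2 values were 2.45 ± 0.40, 1.88 ± 0.40 and 1.64 ± 0.36. Ugt1a1, the bilirubin-conjugating isoform, did not pass at -0.86 ± 0.38 in the same table. Of 51 NRF2 targets and glutathione genes 10 rose and none fell, median 0.35. The glutathione transferases Gsta3 and Gsta4 averaged 234 in fibrin and 61 in 2D and 897 in fibrin and 316 in 2D, log2 1.94 ± 0.30 and 1.50 ± 0.28 in the authors' deposited table. Microsomal Mgst1 was at 1.74 ± 0.32, the quinone reductase Nqo1 at 1.12 ± 0.24 (10686 normalized reads in fibrin and 4905 in 2D) and the peroxiredoxin Prdx1 at 0.97 ± 0.23 there. Of 23 P450 genes 3 rose and 2 fell, among them the vitamin D hydroxylase Cyp24a1 (1.41 ± 0.37), Cyp2j5 (1.01 ± 0.34) and the aryl hydrocarbon target Cyp1a1 (-1.17 ± 0.40) in the deposited table. Of 35 retinoid, aldehyde and aldo-keto genes 2 rose, Akr1b3 (0.78 ± 0.21) and Akr1b8 (0.75 ± 0.23), and 4 fell, with Adh1 at -1.36 ± 0.37 in the authors' deposited table. Of 15 NADPH oxidase and antioxidant genes 3 rose, led by the oxidase organizer Noxo1 (1.15 ± 0.25, 1070 in fibrin and 482 in 2D), and 1 fell, the kidney oxidase Nox4 (-1.17 ± 0.36, 119 in fibrin and 268 in 2D). The calls that rescaling removed were those of Prdx1, Cyp24a1, Cyp2j5, Cyp1a1, Akr1b3, Akr1b8, Adh1 and Nox4.

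Proximal tubule genes went in both directions, 8 of 46 risen and 4 fallen, with a median of -0.05. Changed members made up 26.1% of the list, against 8.66% over all genes. Besides Tmem27, the androgen-regulated protein Kap averaged 1008 normalized reads in fibrin and 254 in 2D, log2 1.99 ± 0.26 in the authors' deposited table (adjusted p = 2.9e-12). The endopeptidase neprilysin (Mme) averaged 285 normalized reads in fibrin and 87.7 in 2D, log2 1.70 ± 0.28 there, and Acsm2, a medium-chain acyl-CoA synthetase, averaged 1205 normalized reads in fibrin and 451 in 2D, log2 1.42 ± 0.30 in the deposited table. On the fallen side, Anpep was followed by the phosphate transporter Slc20a1 (9819.9 normalized reads in fibrin and 20855 in 2D, log2 -1.09 ± 0.23 in the authors' deposited table) and the cystine transporter subunit Slc7a9 (-0.92 ± 0.27). Brush border peptidases thus differed in direction, with Mme risen and Anpep fallen in fibrin. Slc7a9 did not pass after rescaling.

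Transporters and channels outside the proximal tubule list also went in both directions. The share changed was 20.5% for amino acid and organic ion transporters and 19.4% for ion channels, against 8.66% over all genes. Of 23 genes of nephron segments from the loop of Henle to the collecting duct 2 rose and 1 fell, with the anion exchanger pendrin (Slc26a4) at 105 in fibrin and 31.6 in 2D, log2 1.73 ± 0.40 in the authors' deposited table, the sodium-proton exchanger Slc9a2 at 0.67 ± 0.23 and the sodium channel subunit Scnn1g at -1.38 ± 0.40. Of 39 amino acid and organic ion transporters 3 rose and 5 fell. The glutamine transporter Slc38a3 averaged 915 normalized reads in fibrin and 2973 in 2D, log2 -1.70 ± 0.31 in the deposited table (adjusted p = 3.4e-06), and the carnitine and ergothioneine transporter Slc22a4 averaged 1271 normalized reads in fibrin and 3406 in 2D, log2 -1.42 ± 0.22 there. The organic anion transporters Slco4a1 and Slco3a1 were on the risen side, at 1.25 ± 0.28 and 1.23 ± 0.32 in the authors' deposited table. Of 31 potassium, chloride and cation channels 1 rose, Kcnma1 (1.05 ± 0.31), and 5 fell, among them the lysosomal exchanger Clcn7 (-0.69 ± 0.20) and the mechanically opened Piezo1 (-0.63 ± 0.20, 9437 in fibrin and 14628 in 2D), in that table of the authors. Of 17 purinergic genes P2rx3 fell and the ectonucleotidase Enpp4 rose (0.83 ± 0.25). Of 50 genes of primary cilia and cystic kidney disease 3 fell and none rose: Pkhd1, the gene of recessive polycystic kidney disease, averaged 4654 normalized reads in fibrin and 9649.8 in 2D, log2 -1.05 ± 0.20 in the authors' deposited table (adjusted p = 1e-05), and cystin (Cys1) was at -0.97 ± 0.30 and Pkhd1l1 at -1.33 ± 0.38. Neither Pkd1 (-0.58 ± 0.22) nor Pkd2 (0.01 ± 0.22), the genes of the dominant disease, passed in that table. Calls lost on rescaling were those of Slc26a4, Slc9a2, Scnn1g, Slco4a1, Slco3a1, Kcnma1, Clcn7, Piezo1, Enpp4, Cys1 and Pkhd1l1.

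Genes for the clotting and plasmin systems, which form and dissolve fibrin, stayed near the background. Changed were 4.35% of them and 7.69% of the integrins and other matrix receptors, against 8.66% over all genes. Of 23 measured members 1 rose, the thrombin inhibitor heparin cofactor II (Serpind1), at 3819.7 normalized reads in fibrin and 1386 in 2D, log2 1.46 ± 0.33 in the authors' deposited table (adjusted p = 0.00049). Of 26 integrins and other matrix receptors Cd47 rose (0.85 ± 0.22) and Itgb4, the laminin-binding integrin of hemidesmosomes, fell to 2356 normalized reads in fibrin, against 4492 in 2D (log2 -0.93 ± 0.20, adjusted p = 0.00014). Matrix genes went in both directions. The share changed was 14.3% for collagen-modifying enzymes. It was 24.1% each for basement membrane genes, interstitial collagens and glycoproteins, and matrix proteases and inhibitors. Of 29 basement membrane genes 5 fell and 2 rose. Lama3, a partner of Itgb4 at the cell base, is given above, and Col4a5, a collagen IV chain of the kidney, averaged 308 normalized reads in fibrin and 700.4 in 2D, log2 -1.19 ± 0.23 in the authors' deposited table. Lamb2, Lama5 and nephronectin (Npnt) were at -0.71 ± 0.20, -0.59 ± 0.20 and -0.65 ± 0.22, while Lama1 and Fbln1 were at 0.94 ± 0.23 and 1.07 ± 0.29 there. Of 29 interstitial collagens and glycoproteins 5 fell and 2 rose, with fibulin 2 (Fbln2) at 13.7 in fibrin and 82.9 in 2D and collagen Col14a1 at 102 in fibrin and 24.9 in 2D, log2 -2.60 ± 0.38 and 2.03 ± 0.37 in the deposited table. Collagen Col5a1, fibrillin 1 (Fbn1) and Col12a1 were at -1.005 ± 0.23, -0.93 ± 0.28 and -1.39 ± 0.34 in the authors' deposited table. Of 21 collagen-modifying enzymes 2 fell, the prolyl hydroxylase subunits P4ha2 and P4ha1 (-0.71 ± 0.21), and Pcolce2 rose (1.06 ± 0.36). Of 29 matrix proteases and inhibitors 5 fell and 2 rose, and the metalloprotease inhibitor Timp3 averaged 1731 normalized reads in fibrin and 4736 in 2D, log2 -1.45 ± 0.20 in the authors' deposited table (adjusted p = 1.9e-10). Collagenase Mmp13 was at 46.3 in fibrin and 19 in 2D and gelatinase Mmp2 at 53 in fibrin and 119 in 2D. Among all genes named in this paragraph, Serpind1, Cd47, Lamb2, Lama5, Npnt, Lama1, Fbln1, Col5a1, Fbn1, Col12a1, P4ha1, Pcolce2, Mmp13 and Mmp2 lost their calls on rescaling.

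Mesenchymal, contractile and mechanosensitive genes went in both directions, with 21.1% of the mesenchymal list and 9.09% of the YAP/TAZ list changed, against 8.66% over all genes. Of 19 mesenchymal and fibroblast genes 2 rose, S100a4 (1.09 ± 0.29) and Twist2 (1.004 ± 0.21, 1884 normalized reads in fibrin and 939 in 2D), and 2 fell, Col1a1 (-1.49 ± 0.33) and Pdgfra (-1.19 ± 0.39), in the authors' deposited table. Of 30 actin and SRF genes cytoplasmic actin (Actb) rose, at 104067 normalized reads in fibrin and 59012 in 2D (log2 0.82 ± 0.20), and Pdlim1 fell (-0.99 ± 0.29). Of 22 YAP/TAZ targets 2 fell, Tgfb2 (-1.25 ± 0.25) and Gadd45b (-0.73 ± 0.25), and none rose. Of 6 smooth muscle and pericyte markers 3 fell, with Mcam, an adhesion molecule, at 639 normalized reads in fibrin and 1794 in 2D (log2 -1.49 ± 0.23 in the authors' deposited table, adjusted p = 1.9e-08), Notch3 at -1.23 ± 0.25 and desmin (Des) at -0.83 ± 0.29. The defining members Myh11 and Rgs5 were below the base mean of 10 and at 0. Of 5 endothelial genes Flt1, the VEGF receptor 1, rose (0.93 ± 0.32), while Kdr was at 0. None of 6 podocyte genes changed. S100a4, Col1a1, Pdgfra, Actb, Pdlim1, Gadd45b, Des and Flt1 lost their calls on rescaling.

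Signalling genes that changed included ligands, antagonists, receptors and feedback genes. Against 8.66% over all genes, the share changed was 7.69% for EGF receptor ligands and ERK feedback genes and 12.9% for WNT genes. It was 21.1% for TGF-beta and BMP genes, 21.7% for Notch genes and 35.5% for growth factor genes. Of 38 TGF-beta and BMP genes 6 fell and 2 rose. The ligand Bmp6 averaged 998 normalized reads in fibrin and 2677 in 2D, log2 -1.42 ± 0.21 in the authors' deposited table (adjusted p = 3.9e-09). The BMP target Id1 averaged 1034 normalized reads in fibrin and 309 in 2D, log2 1.74 ± 0.22 there (adjusted p = 8.2e-13), and its relative Id3 was at 0.83 ± 0.25. The antagonists chordin (Chrd) and follistatin (Fst) were at -1.70 ± 0.38 and -1.17 ± 0.31 in the deposited table. Of 31 WNT genes 4 fell and none rose, Wnt9a (-1.10 ± 0.23), the WNT deacylase Notum (-1.02 ± 0.33) and the receptors Fzd8 (-0.96 ± 0.32) and Fzd4 (-0.77 ± 0.25) in the authors' deposited table. Of 23 Notch genes 4 rose and 1 fell. The receptor Notch1 averaged 4155 normalized reads in fibrin and 2049 in 2D (log2 1.02 ± 0.20), the target Hey1 190.1 in fibrin and 66.9 in 2D (1.51 ± 0.31) and Notch3 fell to 307 in fibrin, against 721 in 2D. Of 39 EGF receptor ligands and ERK feedback genes 3 rose, Fos (1.24 ± 0.30), Errfi1 (0.92 ± 0.25) and Egr1 (0.86 ± 0.29), with a list median of 0.40. Of 31 growth factor genes 5 rose and 6 fell. After Igf1 and Igfbp7 the risen ones were Gdnf (20.8 in fibrin and 8.18 in 2D), Fgf7 (47.3 in fibrin and 19.2 in 2D) and Flt1, and the fallen ones included Fgfr3 (-0.99 ± 0.24), Pdgfc (-0.96 ± 0.28), Pgf (-0.85 ± 0.24) and Igf2r (-0.82 ± 0.20) in the authors' deposited table. Calls removed by the rescaling were those of Id3, Chrd, Fst, Notum, Fzd8, Fzd4, Fos, Errfi1, Egr1, Gdnf, Fgf7, Fgfr3, Pdgfc, Pgf and Igf2r and Flt1.

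Epithelial surface genes and transcription factors also moved. Against 8.66% over all genes, 28.6% of the keratin, cornified envelope and mucin list changed. The shares were 11.4% for junction, polarity and cadherin genes and 20.9% for kidney and epithelial transcription factors. Of 28 keratin, cornified envelope and mucin genes 7 rose and 1 fell, median 0.41. The membrane mucins Muc20 and Muc13 averaged 693 in fibrin and 164 in 2D and 66.8 in fibrin and 17.7 in 2D, log2 2.08 ± 0.31 and 1.91 ± 0.39 in the authors' deposited table. Sprr2h, a cornified envelope precursor with close copies, averaged 894 normalized reads in fibrin and 212 in 2D, log2 2.08 ± 0.30 there. Scel averaged 230.5 in fibrin and 37.4 in 2D, and keratin 80 (Krt80) fell to -0.85 ± 0.29 in the deposited table. Of 44 junction, polarity and cadherin genes 2 rose and 3 fell: Pcdh10 and Pcdh19 (1.74 ± 0.34) on one side, claudin 1 (Cldn1, 1243 normalized reads in fibrin and 3129 in 2D, log2 -1.33 ± 0.28), Dsc2 (-1.04 ± 0.31) and Dsg2 (-0.68 ± 0.20) on the other, in the authors' deposited table. Of 43 kidney and epithelial transcription factors 4 rose and 5 fell. C/EBP delta (Cebpd), a regulator of acute phase genes, averaged 8029.5 normalized reads in fibrin and 1467 in 2D, log2 2.45 ± 0.32 in the authors' deposited table (adjusted p = 1.1e-11). Sox9, a factor of tubule repair, was at 0.96 ± 0.31, and Klf4 fell to 561 in fibrin, against 1289.9 in 2D (log2 -1.20 ± 0.22). Maf, Esrp2 and Pax8 were among the other fallen ones, which lay at log2 -1.04 to -0.63. Of 20 Hox genes none changed, with Hoxb8 the most abundant (0.49 ± 0.21). Krt80, Dsc2, Dsg2 and Sox9 and Esrp2, Maf and Pax8 did not pass on rescaling.

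Fibrin was then set against the other 3 microenvironments gene by gene, as the difference of the log2 fold changes over the root of their summed squared standard errors, tested two-sided against a normal distribution and adjusted by Benjamini-Hochberg. All 4 comparisons share the 2D libraries, which makes these standard errors too wide. The label of the printed cultures names fibrin/collagen as their matrix, so they do not stand for a matrix free of fibrin. Fibrin differed from Matrigel for 161 of 13804 genes (1.17%), from collagen I for 74 of 13799 (0.536%) and from the printed cultures for 201 of 13830 (1.45%). The central part of these statistics was 0.90, 0.58 and 0.93 times as wide as a standard normal distribution, in the same order. The counts therefore do not rank the microenvironments by their distance from fibrin. In fibrin 99 of the 161, 67 of the 74 and 80 of the 201 were the higher ones. A total of 32 genes were higher in fibrin than in all 3 other microenvironments, and 1 was lower, Cox6a2, a muscle-type subunit of cytochrome oxidase (23.6 in fibrin and 156 in 2D, log2 -2.72 ± 0.36 in the authors' deposited table for fibrin). Of the 32 genes 31 had also risen against 2D, and they include 12 of the 20 highest genes of fibrin. The differences, the rise and that ranking all use the same fibrin fold change, so this overlap is no independent support. None of the 20 lowest genes was lower in fibrin than in all 3.

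Ceruloplasmin had log2 fold changes over 2D of 4.05 ± 0.31 in fibrin, -0.68 ± 0.29 in Matrigel, -0.50 ± 0.41 in collagen I and -0.38 ± 0.29 in the printed cultures in the authors' deposited tables. C3 stood at 2.20 ± 0.32 in fibrin, 0.34 ± 0.27 in Matrigel, -0.30 ± 0.41 in collagen I and -0.01 ± 0.30 in the printed cultures there. Cebpd was at 2.45 ± 0.32 in fibrin, against -0.04 ± 0.27 in Matrigel, 0.06 ± 0.33 in collagen I and -0.01 ± 0.29 in the printed cultures (difference from Matrigel adjusted p = 2.7e-06, from collagen I adjusted p = 0.00017, from printed adjusted p = 7.4e-06). Igf1 was at 3.14 ± 0.30 in fibrin and between -0.76 and -0.03 in the others. The further genes higher in fibrin than in all 3 were Lbp, Anxa13, Casp1, Ehf, Slc39a4, Vwa2, Adgrb2, Alcam, Cd14, C1s1, C1ra, Ltf, A2m, Zc3h12a, Mgst1, the 4 Serpina3 genes, Anxa6, Agt, Qsox1, Fam20c, Fam167a, Car2, Adgra1, Prnd and Lta, the last 9 named after their values were seen. Of these, angiotensinogen (Agt) had not risen against 2D (0.58 ± 0.27, adjusted p = 0.19). By contrast, Scel was at 2.62 ± 0.33 in fibrin, 2.07 ± 0.31 in Matrigel and 2.95 ± 0.33 in collagen I, while Pcdh10 was at 3.13 ± 0.27 in fibrin, 2.61 ± 0.22 in Matrigel and 2.92 ± 0.23 in collagen I. Neither gene passed the test of a difference between fibrin and these gels (adjusted p = 1 in each of the 4 tests). For 50 risen genes, Ugt1a9 and Defb1 among them, the base mean was below 10 in at least 1 of the other tables, so not all 3 differences were tested. With rescaled statistics A2m, Qsox1 and Lta did not pass against 2D.

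**Figure D5:**
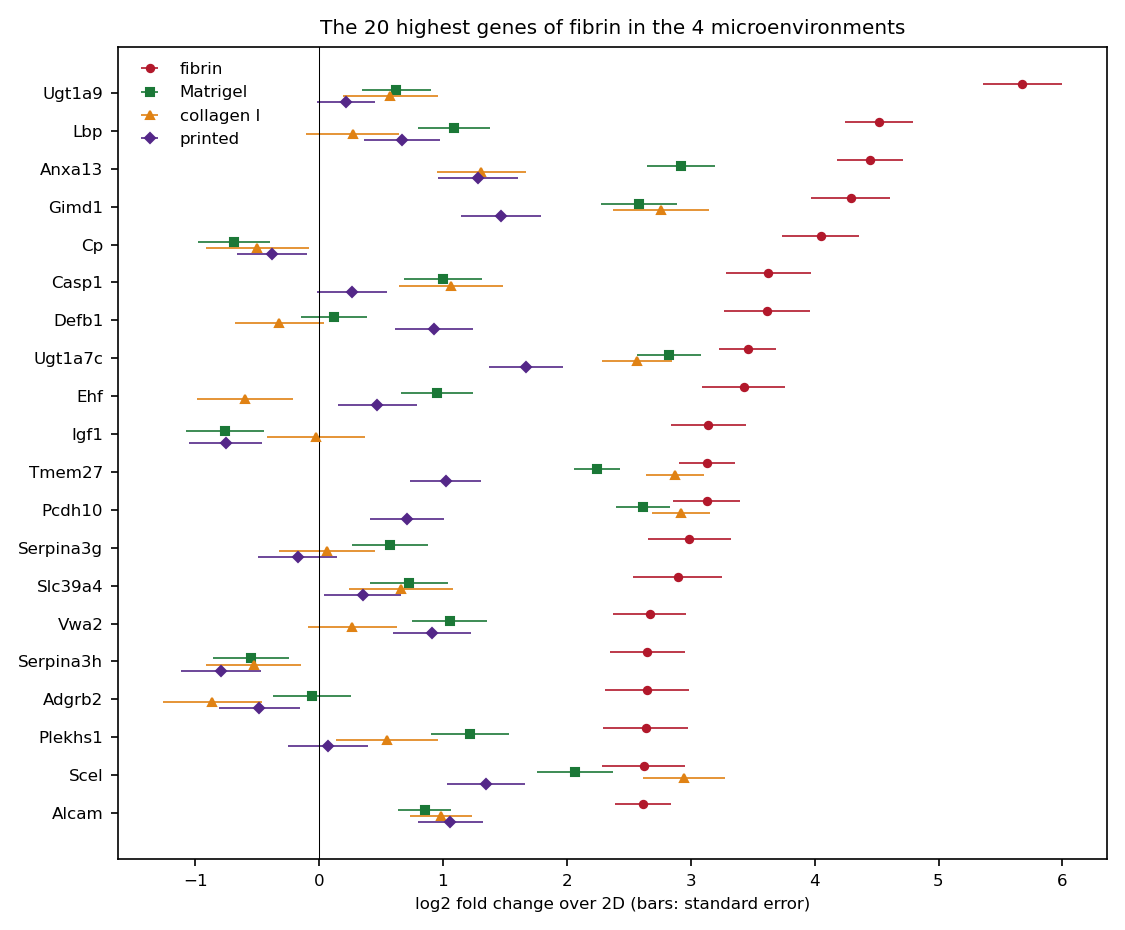
Log2 fold change over 2D, with the authors' standard error as bars, of the 20 highest genes of fibrin in fibrin (red circles), Matrigel (green squares), collagen I (orange triangles) and printed cultures (purple diamonds). For Cp and Igf1 the 3 other microenvironments lie below 0, while for Scel, Tmem27 and Pcdh10 Matrigel and collagen I lie near fibrin.

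Single genes were also followed across the microenvironments: the fallen Ankrd37 of the hypoxia list, Pdk1 of the glycolysis list and P2rx3, and the risen Rrm2. They do not stand for the other members of their lists. Ankrd37 was at log2 -1.91 ± 0.22 in fibrin, -0.28 ± 0.27 in Matrigel, -3.40 ± 0.25 in collagen I and 0.38 ± 0.29 in the printed cultures in the authors' deposited tables. The fibrin value was lower than that of Matrigel (adjusted p = 0.00086) and of the printed cultures (adjusted p = 1.7e-07) and higher than that of collagen I (adjusted p = 0.0024). Pdk1 was at -1.57 ± 0.22 in fibrin, -0.47 ± 0.30 in Matrigel, -2.90 ± 0.28 in collagen I and 1.07 ± 0.29 in the printed cultures, and fibrin differed there from collagen I (adjusted p = 0.036) and from the printed cultures (adjusted p = 6.1e-10). P2rx3 was at -2.55 ± 0.25 in fibrin and -2.50 ± 0.33 in collagen I, against 1.51 ± 0.18 in Matrigel and 0.91 ± 0.27 in the printed cultures, in the authors' deposited tables. Fibrin differed from Matrigel (adjusted p = 1e-34) and from the printed cultures (adjusted p = 4.5e-17) for that gene, and the difference from collagen I did not pass. Rrm2, the highest of the replication genes, was at 1.72 ± 0.24 in fibrin, 1.46 ± 0.18 in Matrigel, 2.00 ± 0.26 in collagen I and 1.29 ± 0.20 in the printed cultures, and none of the 3 differences passed (smallest adjusted p = 1).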

How the data were processed

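RNA of induced renal tubular epithelial cells was sequenced, and the values used are the authors' deposited tables of results, 1 for each microenvironment against 2D. Per the submitters' processing notes, the build was mm10 and the tools named are DESeq2 1.22.1, featureCounts 1.6.3, STAR 2.6.0b-1, Trim Galore 0.4.3 and FastQC 0.72, with no roles given. Whether reads were counted by strand, on which annotation and with a term for passage is not given in the sources used here. Nor is it given whether the fold changes were drawn toward 0, which would bring all the split levels closer together. Base means are a signal that the authors deposited, the average of normalized counts over 6 libraries. The fold change and its standard error are log2 values in the deposited tables. The Wald statistic is a score that the authors deposited, the fold change over its standard error. The p-value and adjusted p-value are the authors' deposited values. The tables hold 0 columns of values per library, so the edgeR test on counts was not used here, and depth, counting error and the spread between replicates are unknown.

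Levels in fibrin and 2D were computed from the base mean and fold change. For the second route to the 2D level, the median over the other 3 tables was used, after shifting each by at most 0.05 on the log2 scale. Genes were named by a rule: the 20 highest and 20 lowest changed genes at a base mean of at least 100, the 10 highest base means, up to 5 changed members of each of 56 functional lists in each direction (the most abundant member where none changed), 4 induction factors and the 10 widest gaps between the 2 routes. Members and lists were chosen with earlier results of these data known. Of the members, 97.6% were matched to RefSeq. Adjustment, rescaling and the difference test were tested on simulated data, using Python 3 with pandas and scipy. The simulated tables held a small set of large changes and were drawn independently. Small changes in many genes and shared 2D libraries were not simulated. Alternatives changed the threshold, the adjustment, the base mean minimum, the centring and the spread of the statistics. A few genes of the lists are not reported here.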

Additional observations from a re-analysis of the deposited data

How the results depend on the processing

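Of 8 alternatives for the genes changed in fibrin against 2D, 5 stayed within 1.5 times the 1214 genes. The other 3 gave 724 genes at an adjusted p under 0.01, 609 where the log2 fold change had to reach 1 in size and 316 with the Wald statistics divided by the spread of their central part. Rescaling the differences in the same way gave 265 genes in place of 161 for Matrigel and 517 in place of 74 for collagen I. For both, the statistics were narrower than a standard normal distribution. Asking for a base mean of at least 100 in both tables, 45 genes differed from collagen I and 130 from the printed cultures. Of 270 named genes 130 lost their call on rescaling, and the ratio of implied levels moved 63 by more than 1 standard error. That ratio has no test of its own, so it neither keeps nor removes a call. Of 56 list counts 49 moved on rescaling by over 1.5 times, and 39 lists kept a changed member, against 54. No paired analysis was possible because the tables hold no values per library, and leaving out each replicate was not run for the same reason. Replicate error can be judged only from the authors' standard errors.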

Other observations

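Outside the lists, 898 of the 1214 genes changed in fibrin. Among families of at least 8 members that share the stem of their symbol, chosen after their values were seen, the Mcm helicase genes had 7 of 10 risen and the Lsm genes, whose proteins bind RNA in splicing and decay, 5 of 13 risen, with none fallen in either. Casp4, a caspase that senses lipopolysaccharide inside cells, averaged 256 normalized reads in fibrin and 75.1 in 2D (log2 1.77 ± 0.38 in the authors' deposited table, adjusted p = 0.00013). Of 11 annexin genes 3 rose, and Anxa6 averaged 9278 normalized reads in fibrin and 3279 in 2D (log2 1.50 ± 0.21 in the deposited table). Selenoprotein P (Selenop), a secreted selenium carrier, averaged 16774 normalized reads in fibrin and 3526 in 2D, log2 2.25 ± 0.25 in the authors' deposited table (adjusted p = 7.1e-16). Fam20c, a kinase of secreted proteins, averaged 2196 normalized reads in fibrin and 549 in 2D, log2 2.00 ± 0.23 there, and carbonic anhydrase 2 (Car2) averaged 1602 normalized reads in fibrin and 497 in 2D, log2 1.69 ± 0.23. Otogelin (Otog), with a base mean of 77.1, was the second gene that fell by more than 3, at -3.11 ± 0.37 in the authors' deposited table.

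Noncoding genes were tested as well: 21 of 565 long noncoding RNA genes changed in fibrin (11 risen, 10 fallen, 3.72%), against 1175 of 12827 protein-coding genes (9.16%), and none of 64 small nucleolar RNA genes did. The difference between these shares was not tested, and noncoding genes had lower levels. The snoRNA host genes Zfas1 and Snhg12 fell, at log2 -1.18 ± 0.24 and -1.04 ± 0.28 in the authors' deposited table, as did Firre (-0.77 ± 0.19), a nuclear RNA of the X chromosome. Over the autosomes and the X chromosome, the share of genes that changed in fibrin ran from 6.36% on chromosome 7 to 11.5% on chromosome 3. After rescaling Snhg12 and Firre did not pass.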
